A study of Mus musculus with 3 samples.

Results

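The subject is the set of 10 genes that make, dock, activate, receive and relay transforming growth factor beta (TGF-beta). They are the ligand gene Tgfb1, the docking gene Lrrc32, the integrin genes Itgav and Itgb8, the receptor genes Tgfbr1 and Tgfbr2, and the SMAD genes Smad2, Smad3, Smad4 and Smad7. They were chosen by name, with no measured value in the rule, and all 10 were found among the 55536 annotated genes. The study sequenced polyA RNA from mouse regulatory T cells, in 3 libraries of 1 group. The cells are labelled as experienced in inflammation and as primary cells from a whole animal, a male adult of 16 weeks. The strain, Foxp3GFP-DTRCD4CreERT2R26tdTomato, joins a GFP and diphtheria toxin receptor tied to Foxp3, a tamoxifen-activated Cre tied to CD4, and a tdTomato reporter at the R26 locus. Every library carries the same alleles. The labels give neither the inflammation nor any tamoxifen or toxin treatment, and there is no resting or untreated group. Per the labels, the libraries (1, 2 and 3) are technical replicates of a single biological replicate and 1 donor. Each SD below is therefore the spread between 3 libraries of 1 source (n = 3) and says nothing of animals.

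TGF-beta is secreted in a latent form, in which the mature cytokine stays caged by its own propeptide. Regulatory T cells hold this latent complex on their surface through GARP, the product of Lrrc32, and the integrin made of the αv chain (Itgav) and the β8 chain (Itgb8) frees the active cytokine. The active cytokine binds the type II receptor Tgfbr2, which recruits and phosphorylates the type I receptor Tgfbr1. That receptor phosphorylates Smad2 and Smad3, which enter the nucleus with Smad4, while Smad7 is induced by the pathway and blocks the receptor. In T cells the pathway is known for inducing Foxp3 and the integrin gene Itgae and for restraining effector programmes.

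The libraries held 17535472 to 20996194 expected counts, and 3 counts on a transcript of 1 kilobase stood for 0.23 to 0.251 TPM, the unit of abundance scaled for length and depth. The label was checked against T cell and regulatory T cell markers, and all 11 were detected, that is, at 1 TPM or more in each library. The receptor gene Trac was the highest of them, at a mean of 2933 TPM, and Cd3e had 1326 TPM, Cd4 266 TPM, Foxp3 74.4 TPM and Il2ra 284 TPM. Transcripts of other blood cells were present as well. The 6 erythroid markers summed to 1390, 1097 and 1751 TPM in libraries 1, 2 and 3, led by Hbb-bs (mean 494 TPM), and the 6 B cell markers to 1775, 1374 and 1526 TPM, most of it Ighm (mean 1486 TPM). The 5 stromal and epithelial markers summed to 98.8, 116 and 109 TPM, nearly all from Pecam1, and the 6 CD8 T and NK markers to 23.5, 31.1 and 30.8 TPM, most of it Cd8b1 (mean 17.9 TPM), with Cd8a at a mean of 1.02 TPM. In RNA from a bulk of cells, fewer cells of a type and less RNA per cell cannot be told apart.

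All 10 genes were detected in every library, and they spanned from 3.94 to 106 mean TPM. Their median was 32.4 TPM, beside 25.9 TPM for the 10436 protein-coding genes that were detected. Lrrc32 and Tgfbr2 stood at about 100 TPM or more, and Tgfbr1, Tgfb1 and Smad2 between 45.8 and 49.5 TPM. Itgb8, Itgav and Smad3 lay between 11.2 and 19.1 TPM, Smad4 and Smad7 below that. Neighbours in this order were compared by their difference of log2(TPM + 1) within each library, and counted as told apart where the sign was the same in all libraries and the mean exceeded 2 SD. Only 3 of the 9 neighbouring pairs met that rule, Smad2 above Itgb8 (1.23 ± 0.17), Itgb8 above Itgav (0.25 ± 0.07) and Smad4 above Smad7 (0.76 ± 0.03). In counts not scaled for length Smad2 and Itgb8 were not told apart (0.08 ± 0.22). The order among the upper 5 genes is not fixed by these libraries. With library 3 left out, 7 of the 9 pairs met the rule.

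**Figure D1:**
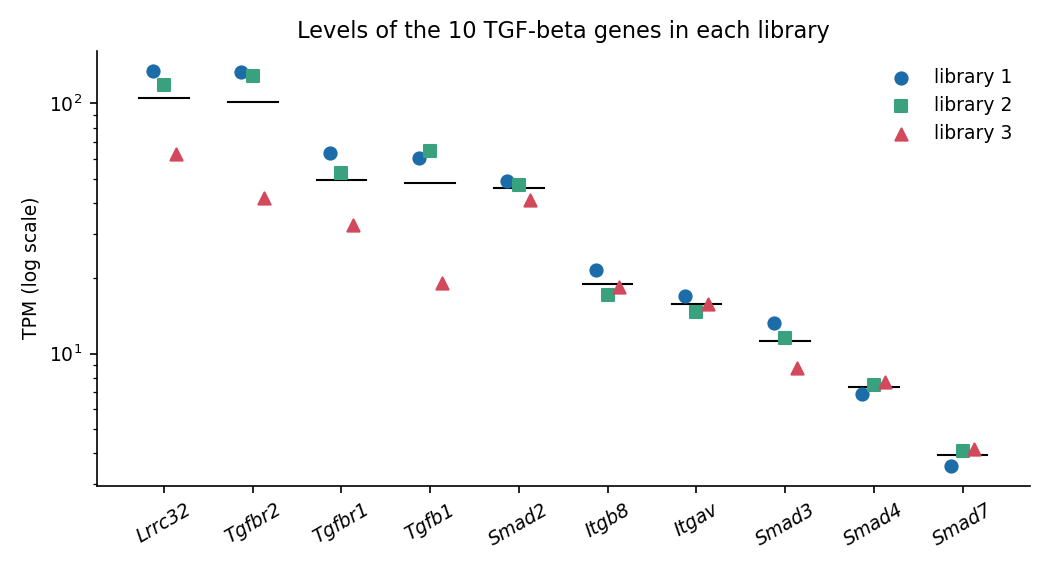
The vertical axis is TPM on a log scale, and each of the 10 genes has 1 point per library and a bar at the mean of the 3 libraries. Library 3 (triangles) lies far below the other libraries for Lrrc32, Tgfbr2, Tgfbr1 and Tgfb1, and close to them for Smad2, Itgb8, Itgav, Smad4 and Smad7.

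Tgfb1 (ENSMUSG00000002603.15, chromosome 7, 25687002 to 25705077, mm10, plus strand) stood at 60.7, 64.6 and 19.1 TPM in libraries 1, 2 and 3. Libraries 1 and 2 were close, and library 3 lay at 0.302 of their mean after scaling for depth. The mean was 48.1 ± 25.2 TPM, rank 3460 among 22028 protein-coding genes. Expected counts behind these values were 1489, 1505 and 433. The genes of the other TGF-beta isoforms were far lower. Tgfb3, known from palate development, had 27, 54 and 78 counts, or 0.62, 1.35 and 1.95 TPM, so that library 3 was its highest. Tgfb2 had 2, 1 and 4 counts. Tgfb1 exceeded Tgfb3 by 4.27 ± 1.32 on the log2(TPM + 1) scale and Tgfb2 by 5.29 ± 1.06, in each library.

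Lrrc32 (ENSMUSG00000090958.2, chromosome 7, 98489283 to 98502181, plus strand) stood at 135, 119 and 62.6 TPM (mean 106 ± 38.2, rank 1629). Library 3 was again the lowest, at 0.494 of the others. Lrrc32 exceeded Tgfb1, whose product its protein docks, in every library, by 1.14, 0.87 and 1.66 on the log2(TPM + 1) scale (mean 1.22 ± 0.40). Nrros, which codes for the related docking protein of myeloid cells and microglia, was present at a similar level, 79.8, 70.5 and 76.8 TPM. The difference of Lrrc32 from Nrros changed sign, 0.76, 0.74 and -0.29, so the pair was not told apart. Platelets and macrophages are other carriers of latent TGF-beta. The 6 platelet markers summed to 1.82, 1.43 and 1.90 TPM, with 1 of 6 detected (Itga2b, mean 1.30 TPM), Gp1bb at 0, Pf4 with 1 count in library 3 alone, and Ppbp and Gp9 each with 1 to 3 counts. The 6 macrophage markers summed to 44.0, 44.6 and 33.6 TPM, with 4 of 6 detected, led by Csf1r (mean 14.2 TPM) and Lyz2 (14.8, 15.0 and 7.45 TPM). The part of macrophage RNA in the Nrros and Tgfb1 values was not tested.

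Other ligands and latency genes were mostly silent. Of the 17 genes of that list, 3 were detected. Beside Nrros these were Bmp7, a bone morphogenetic protein gene (11.7 ± 3.29 TPM), and Furin, the protease that cuts the TGF-beta precursor (3.86, 4.96 and 3.15 TPM). Furin lay below its substrate gene Tgfb1 in each library, by a mean log2 difference of -3.13 ± 0.75. The list's median was 0.233 TPM, and the latent TGF-beta binding protein genes Ltbp1 to Ltbp4 all lay under 1 TPM in every library.

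Of the activating integrin, Itgb8 (ENSMUSG00000025321.14, chromosome 12, 119158022 to 119238802, minus strand) was measured at 21.6, 17.1 and 18.5 TPM (mean 19.1 ± 2.31, rank 6085). Itgav (ENSMUSG00000027087.11, chromosome 2, 83724397 to 83806916, plus strand) stood at 16.98, 14.68 and 15.86 TPM (mean 15.8 ± 1.15, rank 6532). For both genes library 1 was the highest and library 2 the lowest, and library 3 lay between. As TPM the chain genes nearly matched, with Itgav below Itgb8 by -0.25 ± 0.07 on the log2 scale, under the minimum of 1 set for a named pair. That near match rests on how transcripts are counted. An annotated Itgav transcript of 463 bases, Itgav-205, took 46.2 ± 5.80% of the gene's TPM and 7.62 ± 1.46% of its expected counts. Over transcripts of at least 1000 bases Itgav lay below Itgb8 by -1.09 ± 0.09, over transcripts with a CCDS tag, the mark of an agreed coding sequence, by -2.13 ± 0.66, and in counts scaled for depth alone, not for length, by -1.38 ± 0.11. Dendritic cells also use this integrin, and the 5 dendritic cell markers summed to 2.64, 2.45 and 3.25 TPM, with 1 of 5 detected (Zbtb46).

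The list of integrin partners holds β chains that can pair with αv, and Itgae with Itgb7, which together bind E-cadherin. Of its 6 genes 4 were detected. Itgb1, the common β1 chain, was measured at 189, 167 and 59.9 TPM and exceeded Itgb8 in each library (2.65 ± 0.87). Itgb7 reached 803, 791 and 442 TPM, and its partner Itgae, the gene of CD103 and a known TGF-beta target, 78.1, 53.3 and 51.5 TPM. Itgb3, the platelet and osteoclast chain, had 18.4, 20.4 and 9.83 TPM. Itgb6, the epithelial activator of TGF-beta, had 0, 1 and 4 counts, and Itgb5 had 7, 6 and 6.7 expected counts.

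**Figure D2:**
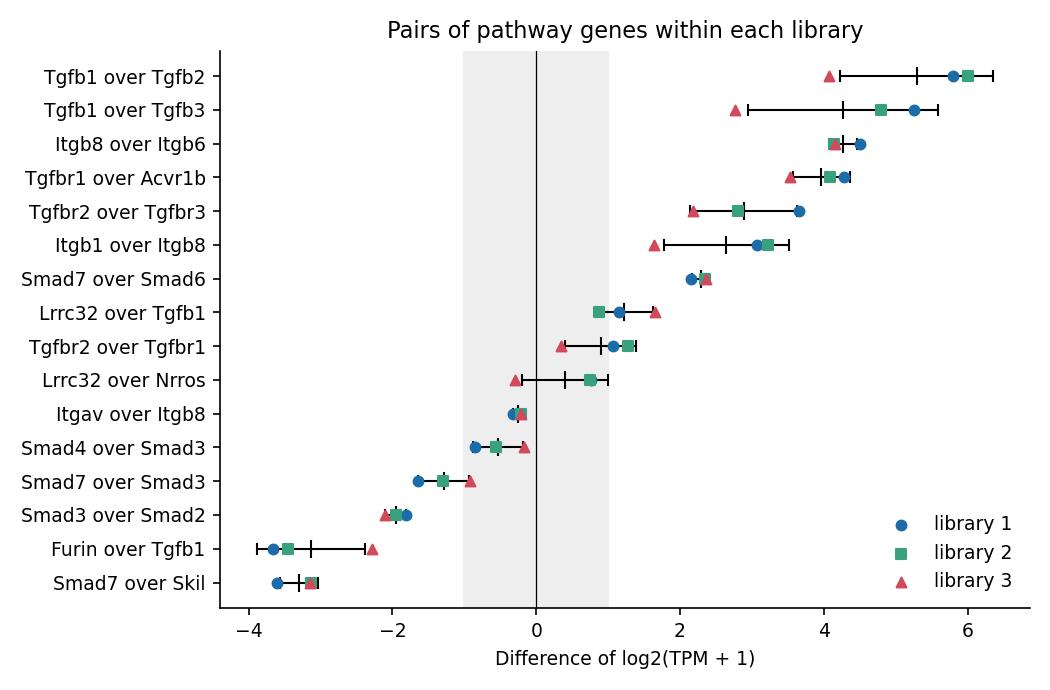
The horizontal axis is the difference of log2(TPM + 1) between the genes of 16 named pairs, with points for the 3 libraries and a bar at the mean with its SD, and the shaded band spans -1 to 1. Of the 16 pairs 12 were told apart, and the point of library 3 lies well away from the other points for Tgfb1 over Tgfb2, Tgfb1 over Tgfb3, Itgb1 over Itgb8, Lrrc32 over Nrros and Furin over Tgfb1.

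Tgfbr2 (ENSMUSG00000032440.13, chromosome 9, 116084293 to 116175360, minus strand) was measured at 134, 129 and 41.8 TPM. Libraries 1 and 2 did not differ beyond counting error (adjusted p = 0.898, chi-square test with Benjamini-Hochberg adjustment), and library 3 lay at 0.34 of them. The mean was 101.5 ± 51.8 TPM, rank 1706. Tgfbr1 (ENSMUSG00000007613.15, chromosome 4, 47353222 to 47414931, plus strand) stood at 63.2, 52.6 and 32.7 TPM (mean 49.5 ± 15.5, rank 3394). The type II gene lay above the type I gene in every library, by 1.07, 1.28 and 0.34 on the log2 scale, but the mean of 0.90 ± 0.49 fell short of both limits for a named pair. Without library 3 it was 1.17 ± 0.15 and met them.

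The remaining receptors of the superfamily were low. Of 12 genes 4 were detected, and the list's median was 0.302 TPM. Tgfbr3, the co-receptor betaglycan, was the highest at 9.65, 17.5 and 8.39 TPM, with library 2 far above the others. Tgfbr2 exceeded it in each library (2.89 ± 0.74). Acvrl1, the ALK1 receptor of endothelium, had a mean of 4.68 TPM, and the activin type I receptor gene Acvr1b, which also phosphorylates Smad2 and Smad3, 2.12 ± 0.19 TPM. Tgfbr1 exceeded Acvr1b by 3.97 ± 0.39. Bmpr1b had no expected count in any library, where 3 counts on a transcript of 1 kilobase would be 0.251 TPM or less, and 1 count in library 3 of the second deposited gene table.

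Smad2 was the more abundant of the receptor-driven SMADs. It was measured at 48.9, 47.4 and 41.2 TPM (ENSMUSG00000024563.16, chromosome 18, 76241580 to 76310963, plus strand, mean 45.8 ± 4.10, rank 3599). Smad3 was measured at 13.2, 11.6 and 8.79 TPM (ENSMUSG00000032402.12, chromosome 9, 63646767 to 63757994, minus strand, mean 11.2 ± 2.25, rank 7307). Smad3 lay below Smad2 by -1.81, -1.95 and -2.11 on the log2(TPM + 1) scale, a mean of -1.95 ± 0.15, a steady gap beside that of other pairs. Smad4, the common partner, was measured at 6.88, 7.49 and 7.73 TPM (ENSMUSG00000024515.13, chromosome 18, 73639009 to 73703780, minus strand, mean 7.37 ± 0.44, rank 8145). It lay below Smad3 in each library, and the mean of -0.53 ± 0.35 was within 2 SD of 0.

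Smad7, the inhibitor, was the lowest of the 10 genes at 3.56, 4.09 and 4.16 TPM (ENSMUSG00000025880.11, chromosome 18, 75367529 to 75395935, plus strand, mean 3.94 ± 0.33, rank 9193), from 196, 207 and 197 counts. It lay below Smad3 by -1.29 ± 0.36. The other inhibitory SMAD, Smad6, had 1, 0 and 0 counts, and Smad7 exceeded it by 2.29 ± 0.12 on a scale whose added 1 TPM understates the gap. The nuclear corepressor Skil, a further brake on SMAD output, was measured at 54.6, 43.8 and 44.9 TPM and exceeded Smad7 by far (difference of Smad7 from Skil -3.30 ± 0.27).

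Of the 14 other SMADs and cofactors 10 were detected. Tgif1, a corepressor, led with 66.1 ± 8.22 TPM, followed by Skil and by the transcription factor gene Runx1, a partner of Foxp3 (26.6, 32.7 and 14.5 TPM). Smad6, Smad9, the anchor gene Zfyve9 (mean 0.223 TPM) and Foxh1 (2 counts in each library) were not. All 10 genes on the list of SMAD ubiquitin genes, which also holds the receptor-associated gene Strap, were detected. The highest were the deubiquitinase genes Usp4 (130 ± 9.32 TPM) and Usp15 (113 ± 7.56 TPM) and the ligase gene Itch (99.7 ± 11.1 TPM). Of 17 genes known as SMAD targets 12 were detected. Junb led at 466, 392 and 89.4 TPM, with library 3 far below, followed by Id3 (218, 191 and 213 TPM) and Id2 (137, 197 and 203 TPM). With no comparison group, none of these levels measures whether the pathway was active.

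**Figure D3:**
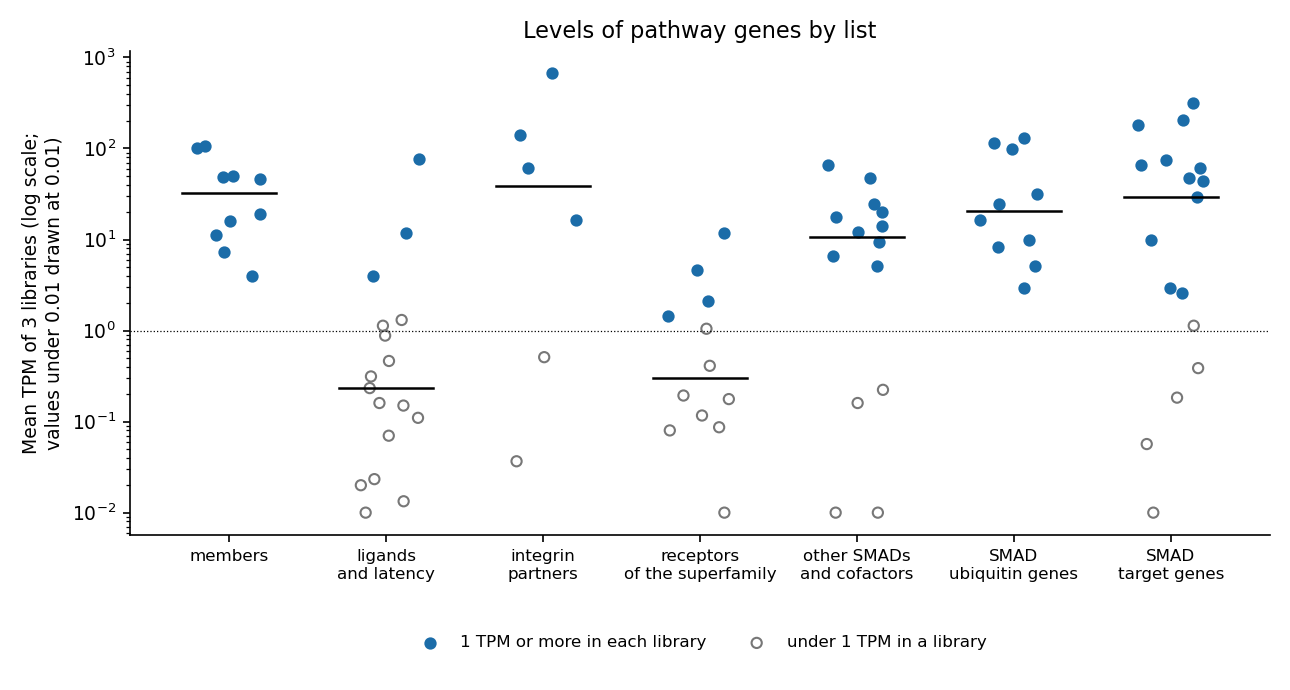
The vertical axis is the mean TPM of the 3 libraries on a log scale, with 1 point per gene for the 10 genes and for 6 lists of pathway genes, and a bar at each list's median. Filled points mark genes at 1 TPM or more in each library, which are 3 of 17 ligands and latency genes, 4 of 12 receptors and all 10 genes on the SMAD ubiquitin list.

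The only test the design allows asks whether the 3 libraries differ by more than counting error, with a chi-square test of the expected counts over every gene whose mean count was 10 or more. It called 9 of the 10 genes at an adjusted p under 0.05, against 63.0% of the 14877 genes tested, so a call by itself is common. In scaled counts 7 of the 10 genes were called with library 3 lowest, against 30.9% of all tested genes called so. Smad4 was called with library 3 highest, against 21.7%. Smad7 was not called (adjusted p = 0.329), and Smad4 only just (adjusted p = 0.0449). The deviation of library 3, its log2 count scaled for depth (CPM) minus the mean of libraries 1 and 2, had a median of -0.41 over the 10 genes and -0.01 over all tested genes. For Tgfb1 it was -1.73 ± 0.07 (SE from counting alone), and 3.68% of tested genes lay lower. For Tgfbr2 it was -1.56 ± 0.03, with a chi-square of 2897 on 2 degrees of freedom, for Lrrc32 -1.02 ± 0.03 with 1183, and for Tgfbr1 -0.82 ± 0.04 with 597. Smad3 followed at -0.58 ± 0.08 and Smad2 at -0.24 ± 0.05. The deviations of Itgav (-0.14 ± 0.08), Itgb8 (-0.01 ± 0.05), Smad7 (0.03 ± 0.13) and Smad4 (0.16 ± 0.10) were within 2 SE of 0. For Itgav the lowest rank held in counts and not in TPM.

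Libraries 1 and 2 differed from each other for 5 of the 10 genes (Lrrc32, Tgfbr1, Tgfb1, Itgb8 and Itgav), against 30.5% of 14868 genes. Those differences were small, from -0.17 for Tgfb1 to 0.41 for Itgb8 on the log2 scale of library 1 minus library 2. In the second gene table, which holds whole-number counts for an older annotation, the deviation of library 3 was -1.52 for Tgfb1, -1.23 for Tgfbr2, -0.74 for Lrrc32, -0.73 for Tgfbr1 and -0.80 for Smad3. There 7 of the 10 genes were called, against 56.6% of all, and Smad2, Smad4 and Smad7 were not. Of 72 genes on the 6 pathway lists 48 were tested. The test called 36 of them (75%, against 63.0% of all), 20 with library 3 lowest (41.7%, against 30.9%) and 11 with it highest (22.9%, against 21.7%, near the share of all genes). All 4 integrin partners that were tested were called with library 3 lowest, as were 30.9% of all tested genes. Junb (-2.26), the receptor-associated gene Strap (-1.89), Itgb7 (-1.74) and the signalling gene Smad1 (-1.63) had large negative deviations, Strap and Smad1 being named after their values were seen. Among marker lists all 6 erythroid genes were called with library 3 highest, against 21.7% of all genes. All 11 T cell and regulatory T cell markers were called, against 63.0% of all. Library 3 was highest for 6 of them (54.5%, against 21.7%) and lowest for 4 (36.4%, against 30.9%). Cd3e and Cd4 were higher there, by 0.18 and 0.26, and Il2ra was lower by -0.08. Foxp3 was lower by -0.42, the most negative deviation among the 11. The part of cell makeup in the library 3 values was not tested.

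Local base composition moved with the deviation across the transcriptome, though not across the 10 genes. Windows of 200 bases were slid along each gene's leading transcript, and the GC percent of the richest was taken as its local GC content. This measure had been picked earlier because it went with the deviation of library 3, so the values that follow describe that link and do not test it. Over 9304 protein-coding genes whose mean count was 100 or more, the median deviation of library 3 was 0.18 below 50% local GC, 0.12 from 50 to 60%, 0.01 from 60 to 70%, -0.92 from 70 to 80% and -0.11 at 80% or more. Tgfbr1 (72.5%), Tgfbr2 (77%), Smad3 (77%) and Tgfb1 (78.5%) lie in the range with the most negative median, 70 to 80%. Smad7 (84.5%) and Smad4 (88.5%) lie above it, and Itgav (48.5%), Smad2 (51.5%), Lrrc32 (64%) and Itgb8 (65.5%) below it. The Itgav value was scored on the 463-base Itgav-205, which led in TPM but held 7.62 ± 1.46% of the gene's expected counts. The longer Itgav transcripts were not scored, so its place by GC is that of this model alone. Across those 9304 genes Spearman's rho between local GC and the deviation was -0.53, and over the 10 genes it was 0.15, both as descriptions of genes that share the same libraries. Lrrc32, as scored on Lrrc32-201, stood low in library 3 although most genes of like GC did not. The coding sequence of that model begins at its base 1, so no untranslated bases before it were scored. Lrrc32-203, which starts further upstream, was not scored. The place of Lrrc32 by GC, and its value in the trend below, are therefore those of Lrrc32-201 alone. After a smooth trend on local GC was removed, the deviation was 0.00 for Tgfbr1 and 0.21 for Smad3, and it was still -0.76 for Tgfbr2, -1.07 for Tgfb1 and -1.04 for Lrrc32. The chi-square test then called 8 of the 10 genes, against 58.7% of all genes. Tgfbr1 (adjusted p = 3.27e-15) and Smad3 (adjusted p = 0.00632) were still called, and Smad4 and Smad7 were not.

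**Figure D4:**
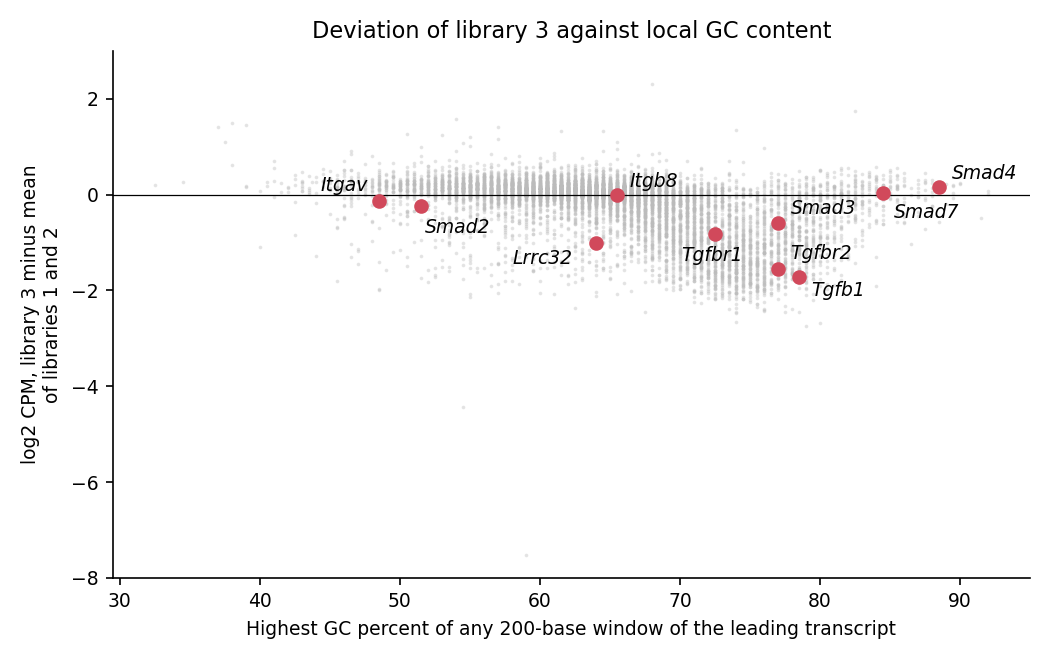
The horizontal axis is local GC content in percent and the vertical axis the log2 deviation of library 3, with 9304 protein-coding genes in grey and the 10 genes in red. Genes between 70 and 80% spread downward, where Tgfb1 and Tgfbr2 sit lowest of the 10. Lrrc32, scored on Lrrc32-201 alone, lies at -1.02 among genes that mostly stay near 0.

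For 6 of the 10 genes, Smad4 and Smad7 among them, the richest window lies wholly in the 5′ untranslated region. That of Tgfbr1 spans the start codon. That of Lrrc32 lies in the coding sequence, and the scored Lrrc32-201 has no 5′ untranslated region. The coding parts of the Tgfbr1 and Lrrc32 windows are shown because they differ in composition while both genes stood low in library 3. They come from the GENCODE M21 transcripts, read 5′ to 3′ on the plus strand of mm10, with runs of 6 or more G or C in capitals.
Tgfbr1, exon 1 of Tgfbr1-201, first 85 coding bases, chr4:47353312-47353396, 74.1% GC: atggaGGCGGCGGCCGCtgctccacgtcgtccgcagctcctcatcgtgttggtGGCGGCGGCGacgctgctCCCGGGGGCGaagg
Lrrc32, exon 2 of Lrrc32-201, 200 coding bases, chr7:98498278-98498477, 64% GC: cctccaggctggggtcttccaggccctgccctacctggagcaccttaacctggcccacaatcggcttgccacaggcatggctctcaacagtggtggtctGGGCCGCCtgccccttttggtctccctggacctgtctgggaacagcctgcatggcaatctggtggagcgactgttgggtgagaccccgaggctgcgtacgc
The Tgfbr1 stretch holds 3 such runs, the longest of 12 bases, and the longer Lrrc32 stretch holds 1, of 8 bases.

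The DNA before the start was compared for Tgfb1 and Tgfbr2, the genes with the largest deviations. Both stretches are the 250 bases before the RefSeq start (GRCm38.p6, the build of mm10), overlap no annotated exon, and are printed 5′ to 3′ on the gene's strand. Capitals mark CAGAC or its complement GTCTG, the SMAD-binding letters, and GGGCGG or its complement CCGCCC, the GC box of Sp factors, which do not overlap each other here.
Tgfb1, chr7:25686752-25687001, plus strand: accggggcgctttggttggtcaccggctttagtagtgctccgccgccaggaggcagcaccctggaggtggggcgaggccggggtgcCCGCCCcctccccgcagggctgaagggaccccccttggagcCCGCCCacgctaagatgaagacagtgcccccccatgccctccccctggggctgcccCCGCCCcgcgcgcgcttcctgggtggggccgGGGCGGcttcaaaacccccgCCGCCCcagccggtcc
Tgfbr2, chr9:116175364-116175613, minus strand: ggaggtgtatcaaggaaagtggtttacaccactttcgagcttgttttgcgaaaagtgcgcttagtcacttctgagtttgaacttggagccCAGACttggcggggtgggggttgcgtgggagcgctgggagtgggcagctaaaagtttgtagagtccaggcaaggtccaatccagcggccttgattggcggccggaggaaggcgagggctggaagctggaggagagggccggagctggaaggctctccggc
The Tgfb1 stretch has 75.2% GC, 5 GC boxes and no CAGAC, and the Tgfbr2 stretch 58.4% GC, no GC box and 1 CAGAC. Among 32851 RefSeq windows of that length, 42.2% hold CAGAC, 32.7% a GC box and 1.93% at least 5, and the median GC is 52.4%. A match of letters is no sign of binding.

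Transcript models split the 10 genes in different ways, as estimates from short reads. Smad7-201 held 97.6 ± 4.08% of its gene's TPM, Smad4-201 95.9 ± 4.28% and Smad3-201 81.7 ± 3.22%. Lrrc32-201 held 78.7 ± 6.06%, and the longer Lrrc32-203, which starts further upstream, fell from 10.02 and 9.03 TPM in libraries 1 and 2 to 1.15 TPM in library 3. Tgfb1-201, the coding transcript, held 76.7, 79.7 and 66.8% of Tgfb1, while the share of the intron-retaining Tgfb1-204 was 7.98, 8.71 and 16.3%. In TPM, Tgfb1-201 was at 46.6, 51.5 and 12.8 and Tgfb1-204 at 4.84, 5.62 and 3.12, so the coding form stood lower in library 3, relative to the other libraries, than the intron-retaining one. Tgfbr2 was shared between coding transcripts, Tgfbr2-201 with 65.4 ± 4.33% and the 8092-base Tgfbr2-202 with 34.6 ± 4.33%, both low in library 3. As a share of expected counts the longer Tgfbr2-202 led, with 55.3 ± 4.64% against 44.7 ± 4.64%. Of Itgb8, 50.4 ± 4.23% of TPM lay in the intron-retaining Itgb8-202 and Itgb8-203, which held 26.3 ± 3.32% of its expected counts, and coding Itgb8-201 reached 11.2, 7.63 and 9.61 TPM. Of Itgav, transcripts with a CCDS tag reached 1.67, 2.18 and 0.58 TPM. For both integrin chains the level of tagged coding transcripts was thus well below the gene level as modelled.

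**Figure D5:**
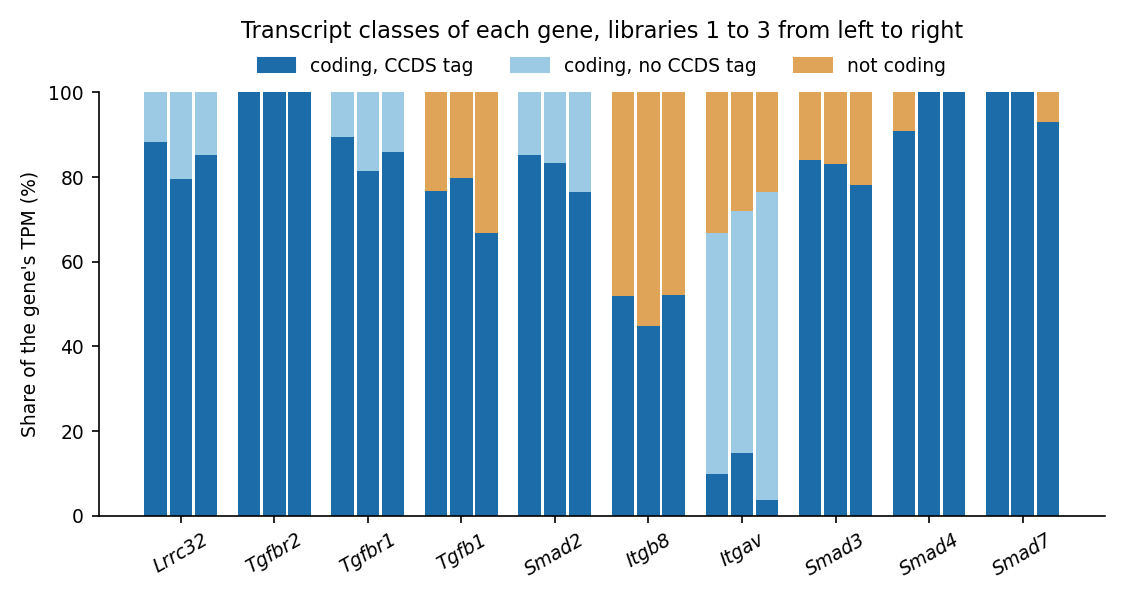
The vertical axis is the share of each gene's TPM in percent, split into coding transcripts with a CCDS tag, other coding transcripts and transcripts that do not code, with 1 bar per library. Tgfbr2 and Smad7 are nearly all CCDS-tagged, whereas 50.4% of Itgb8 on average does not code and most of Itgav lacks the tag.

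The gene most like each of the 10 in its course over the 3 libraries was sought among 9309 protein-coding genes, by the distance between centred log2 counts scaled for depth. The likeness is therefore one of counts and need not hold in TPM, which also moves with the transcripts that reads are assigned to. With 3 points per gene it is a description alone. Med26, a Mediator subunit gene, was nearest to Tgfb1, with 262, 265 and 75 expected counts. Slc25a1, the mitochondrial citrate carrier, was nearest to Tgfbr2 (486, 438 and 150 counts), Zbtb1 to Lrrc32 (2963, 2172 and 1201 counts), and Cutc to Tgfbr1 (225, 163 and 104 counts). Nearest to the integrin genes were Arhgap11a for Itgb8 and Pck2 for Itgav, and to the SMAD genes Gins2 for Smad2, Rab6a for Smad3 and St8sia1 for Smad4. The smallest distance was 0.00149, between Smad7 (196, 207 and 197 counts) and Mon2 (457, 483 and 460 counts), whose TPM of 16.5, 12.8 and 15.3 does not follow that of Smad7. The largest was 0.0143, between Tgfb1 and Med26.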

How the data were processed

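The authors deposited, per library, tables of genes and of transcripts holding expected counts (estimated reads per gene), TPM and FPKM, and each transcript's percent of its gene's TPM, per the file headers. Per the deposited text they used mm10 and GENCODE M21. A second deposited table gives whole-number counts for GENCODE M4, 5056487 to 6339932 per library. The aligner, the counter and the counting rule of this second table were not given in the sources used here. The deposited SD of read assignment was at most 0.588% of a member's count.

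Expected counts were rounded, scaled by TMM (edgeR 4.0.16, R 4.3.3), and compared with Poisson sampling by Pearson's chi-square over all annotated genes whose mean count was 10 or more, adjusted by Benjamini-Hochberg over all of them at 0.05. The code was tested on simulated data. The test sees only differences between technical libraries, and SEs and the floor of 3 counts cover counting error alone, because PCR copies of a molecule cannot be told apart here. Deviations used a prior of 0.5 counts. A named pair was told apart with 1 sign in all libraries, a mean over 2 SD and a mean over 1 in size. The local GC trend was a lowess curve (fraction 0.3), and that window had been picked earlier because it went with the deviation of library 3.

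Named are all 10 members, the 3 highest genes of each pathway list, all genes of named pairs, list genes under 1 TPM where there are 4 or fewer, the highest gene of each marker list with 10 set markers, and the nearest gene to each member. The members, lists and measures were chosen with earlier results of these data known. Alternatives were DESeq2 1.42.0 size factors, total counts, other filters, pseudocounts and detection limits, FPKM, values not scaled for length, the second table, removal of the GC trend, leaving out each library, and, added after seeing the data, CCDS-tagged or long transcripts only. RefSeq promoters were listed for 6 members, and those on chromosome 18 (Smad2, Smad4 and Smad7) were left out of that list beforehand.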

Additional observations from a re-analysis of the deposited data

How the results depend on the processing

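No paired analysis was possible because the 3 libraries form 1 group. All 10 genes remained detected at 0.5 TPM, in FPKM, in the second table and without each library, and 9 at 5 TPM. Genes called over the whole table numbered 9371 of 14877, 6191 of 10936 in the second table, and 4531 to 7845 with 1 library left out. The calls were 9530 of 14877 with DESeq2 size factors, 9519 of 32364 without a filter and 8729 of 14877 after removal of the GC trend. Without library 1 they were 7523 of 14927, without library 2 7845 of 14885, and without library 3 4531 of 14868. The share of all genes called thus differed between settings, and the counts for the 10 genes are to be read beside it. Among the 10 genes 9 were called, 8 with DESeq2 size factors, without a filter or after removal of the GC trend, 7 in the second table, and 5 to 9 with 1 library left out, the lowest without library 3. Neighbours told apart in the order of levels numbered 3, but 5 in the second table, 5 with CCDS-tagged transcripts (chosen after seeing the data), and 3 to 7 with 1 library left out. With CCDS-tagged transcripts Itgav and Smad3 were told apart in the reverse order, at -2.08 ± 0.30. In the main setting that pair stood at 0.48 ± 0.26 and was not told apart. Named pairs told apart ranged from 10 to 14 of 16, and Smad7 was no longer told apart from Smad3 or Smad6 at a pseudocount of 5. The median share of the leading transcript was 73.7% of TPM, 86.1% of expected counts, and 71.7 to 74.8% with 1 library left out. The deviation of library 3 changed sign after removal of the GC trend for Tgfbr1 (0.000915), Smad3 (0.21), Smad4 (-0.12) and Itgb8 (0.0178), and for Itgb8 also with DESeq2 size factors (0.00427) and total counts (0.0967). After removal of the GC trend the change is the trend subtracted, -0.82 for Tgfbr1, -0.80 for Smad3, 0.28 for Smad4 and -0.03 for Itgb8. Whether base composition caused the deviations was not tested. Every Itgb8 value lay within 2 SE of 0 (counting SE 0.05), so its sign is not fixed. Depth limits Smad7, whose deviation has a counting SE of 0.13, and genes at under 3 counts.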
